A study of Mus musculus with 18 samples.

Results

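Ank2, Grb10, Pygl, Asph, Kif21a, Cadps2 and Pamr1 are 7 of the 49845 genes measured in IMCD3 cells, an epithelial line from the mouse inner medullary collecting duct. They were chosen by their measured levels under flow. The mean in wild-type (WT) cells was at least 10 TPM, and the first and second flow libraries of the Ift140 knockout (KO) line each held under 10% of that mean. TPM is the share of a transcript in a library after division by its length, scaled to a fixed sum. Of 9533 genes with such a WT mean, 24 met both conditions, and the 7 are part of these 24. Ank2, Grb10, Pygl and Kif21a were nearly absent from both knockout lines, with at most 1.75 TPM in a knockout library and at least 10.8 TPM in a WT library. Cadps2 was also low in both lines. Asph and Pamr1 go against a description as genes lost in the knockout lines: the Dync2h1 KO line kept 78.0% of the static WT mean of Asph and 27.3% of that of Pamr1.

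The libraries came from Dync2h1 KO cells under flow or static, Ift140 KO cells under flow or static, and WT cells under flow or static, with 3 libraries in each of the 6 groups. Flow was a shear stress of 0.7 dyne/cm2 for 3 h on microslide chambers. All 18 libraries share the strain background Tg(SV40E)bri/7, passage 10 to 15 and medium with fetal calf serum. Dync2h1 encodes the heavy chain of the motor that carries cargo back from the tip of the primary cilium, and Ift140 a subunit of the transport particle on the same route. The series set cells with cilia against cells without. The labels do not say how many clones stand for each knockout or whether replicates were separate cultures. A line and its targeted gene therefore cannot be told apart, and p-values measure only the spread between these samples, which may be technical.

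The 7 genes have different roles. Ankyrins such as the Ank2 product tie membrane proteins to the spectrin skeleton, and Kif21a encodes a kinesin that restrains microtubule growth at the cell cortex. Grb10 encodes an adaptor that dampens signalling from insulin and insulin-like growth factor receptors, and is an imprinted gene, expressed mainly from 1 parental allele. Pygl encodes the liver form of glycogen phosphorylase, Asph an enzyme of the endoplasmic reticulum that hydroxylates aspartate and asparagine in EGF-like domains, Cadps2 a priming factor for dense-core vesicles, and Pamr1 a secreted protein with a peptidase-like domain. None of the 7 is a structural part of the intraflagellar transport machinery.

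The targeted transcripts were lower in their lines but present. Ift140 read 6.15 to 8.41 TPM in static Ift140 KO libraries and 15.8 to 20.1 TPM in static WT libraries (log2 difference -1.33, adjusted p = 0.000112, limma). Dync2h1 read 9.45 to 16.6 TPM in static Dync2h1 KO libraries and 34.4 to 47.0 TPM in static WT libraries (-1.52, adjusted p = 4.07e-05, limma). The library labelled Ift140 KO flow replicate 3 stood apart, with 17.2 TPM of Ift140 where replicates 1 and 2 had 7.67 and 8.20 TPM. It stood apart in other genes too, such as Dync2h1 at 47.3 TPM where replicates 1 and 2 had 22.9 and 27.4 TPM. It also had the highest scaling factor, 1.21, and the most genes at 1 TPM or more, 16076. What sets this library apart was not tested. Among 18 collecting duct and kidney epithelium markers, 9 or 10 averaged at least 1 TPM in each group, led by Krt8, Krt18, Cdh16 and Epcam, while the vasopressin-regulated water channel Aqp2 reached at most 0.07 TPM in any library. Summed over 8 proximal tubule markers, the levels were 10.1 to 14.3 TPM in static Dync2h1 KO, 81.7 to 103 TPM in static Ift140 KO and 418 to 450 TPM in static WT libraries. Cubn, the endocytic receptor cubilin, made up most of the WT sum, and Slc34a1 and Slc22a6 of the same list were listed at 0 throughout. Lrp2, encoding the partner receptor megalin, averaged 4.50 TPM in static Dync2h1 KO, 83.9 TPM in static Ift140 KO and 21.9 TPM in static WT libraries, so that in the Ift140 KO line it was higher than in WT (log2 difference 1.82, adjusted p = 7.59e-07, limma) while Cubn was lower. Sums of fibroblast markers were 0.79 to 1.04 TPM in static Dync2h1 KO, 1.34 to 3.35 TPM in static Ift140 KO and 4.11 to 6.05 TPM in static WT libraries. Sums of endothelial markers were 2.41 to 5.32, 6.02 to 8.23 and 6.73 to 7.29 TPM in the same order, and those of leukocyte markers stayed at or under 24.99 TPM in any library. Csf1r, with group means of 6.86 to 11.1 TPM, was the largest part of the leukocyte sums. Cd68 was higher in static Dync2h1 KO than in WT cells (log2 difference 0.705, adjusted p = 0.0332, limma). The call was lost with the deposited scaling (0.0632), without the filter (0.075) and in a fit restricted to these groups (0.0593). It was also lost without WT static replicate 1 or 3 (0.131 and 0.0653) and without Dync2h1 KO static replicate 1 or 3 (0.144 and 0.103). Ptprc was lower in both lines, but it reached 1 TPM in 3 WT libraries and only 1 knockout library. Of the fibroblast and endothelial markers tested, Postn, Col1a1 and Flt1, all 3 were lower in static Dync2h1 KO than in WT cells and none passed in static Ift140 KO cells. Postn and Col1a1 reached 1 TPM in no Dync2h1 KO library and passed the filter through the other lines alone, which limits what their calls show. The highest values of Postn, Col1a1 and Flt1 in any library were 3.48, 4.83 and 13.93 TPM. Among the markers of these lists that were not tested, the highest value in any library was 0.98 TPM, for Pecam1. The call of Col1a1 was lost without the filter (adjusted p = 0.0745, limma) and with an added 5 TPM in place of 1 (0.0519). It was also lost without WT static replicate 1 or 2 (0.12 and 0.106) and without Dync2h1 KO static replicate 2 or 3 (0.117 and 0.081). The part of these marker levels in the results on the 7 genes was not tested. In bulk RNA, fewer cells with a transcript and less transcript per cell cannot be told apart.

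The 7 genes lie on 7 chromosomes, and 6 of them are on the minus strand. In GENCODE vM21 on GRCm38, Ank2 spans 577739 bp of chromosome 3 (126921612 to 127499350) and Cadps2 spans 576649 bp of chromosome 6 (23262773 to 23839421). Both lengths are at the 99.6 percentile of 11966 protein-coding genes tested. Asph covers 221276 bp of chromosome 4 (9448069 to 9669344), Kif21a 116673 bp of chromosome 15 (90933276 to 91049948) and Grb10 108176 bp of chromosome 11 (11930508 to 12038683). Pamr1 is the gene on the plus strand, with 93030 bp of chromosome 2 (102550012 to 102643041). Pygl is the shortest, with 40678 bp of chromosome 12 (70190811 to 70231488), at the 67.1 percentile.

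Promoter windows are shown for the 4 genes that were nearly absent from both lines, because they are the sequences in front of the transcripts that the results turn on. Each runs from 250 bases before to 50 bases after a RefSeq start on GRCm38.p6, 5′ to 3′ on the minus strand, with each CG dinucleotide in capitals. The windows lie at chr3:127499066-127499365 for Ank2, chr11:12037371-12037670 for Grb10, chr12:70227634-70227933 for Pygl and chr15:91049902-91050201 for Kif21a.
Ank2: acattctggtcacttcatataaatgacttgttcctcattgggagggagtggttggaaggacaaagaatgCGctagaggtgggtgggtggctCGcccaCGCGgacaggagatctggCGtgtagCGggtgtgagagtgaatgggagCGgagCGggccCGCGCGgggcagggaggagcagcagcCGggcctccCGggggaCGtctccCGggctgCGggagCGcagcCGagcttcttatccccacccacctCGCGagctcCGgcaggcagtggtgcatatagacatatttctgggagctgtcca
Grb10: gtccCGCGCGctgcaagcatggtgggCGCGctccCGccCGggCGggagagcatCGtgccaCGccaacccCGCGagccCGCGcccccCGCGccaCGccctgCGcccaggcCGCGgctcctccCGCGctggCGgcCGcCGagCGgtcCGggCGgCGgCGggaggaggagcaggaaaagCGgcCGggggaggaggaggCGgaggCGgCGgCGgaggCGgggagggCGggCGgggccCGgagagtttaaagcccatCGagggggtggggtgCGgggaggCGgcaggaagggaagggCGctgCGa
Pygl: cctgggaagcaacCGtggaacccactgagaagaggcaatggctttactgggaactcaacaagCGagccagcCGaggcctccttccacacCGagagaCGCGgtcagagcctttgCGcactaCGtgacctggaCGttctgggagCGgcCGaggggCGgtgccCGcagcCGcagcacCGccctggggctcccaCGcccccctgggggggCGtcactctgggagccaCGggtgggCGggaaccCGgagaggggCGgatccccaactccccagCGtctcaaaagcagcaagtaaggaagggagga
Kif21a: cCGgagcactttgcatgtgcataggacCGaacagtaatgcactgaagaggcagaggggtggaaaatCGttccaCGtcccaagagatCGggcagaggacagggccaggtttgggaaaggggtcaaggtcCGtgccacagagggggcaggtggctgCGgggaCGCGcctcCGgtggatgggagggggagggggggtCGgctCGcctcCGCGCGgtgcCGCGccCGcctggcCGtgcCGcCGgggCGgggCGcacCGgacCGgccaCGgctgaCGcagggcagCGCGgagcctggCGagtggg

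The windows printed are those of the first listed start. Their CG dinucleotides, the bases at which mammalian DNA can be methylated, number 45 for Grb10, 30 for Kif21a, 22 for Pygl and 21 for Ank2, at the 98.1, 88.3, 76.9 and 75.2 percentiles of 32851 windows of 27025 genes, whose median is 7. The second start of Grb10 has 9, at the 54.2 percentile, and the other starts of Ank2 have 5, 5 and 2. Cadps2 has the highest count among the members, with 54 in a window at the 99.7 percentile. RefSeq windows matched 5 of the 7 genes, 9 windows in all, since Ank2 has 4 starts and Grb10 has 2. Asph and Pamr1 were not matched. Short motifs were searched on both strands. The TATA letters TATAAA are in the Ank2 window printed above and in 13.6% of all windows. The letters CCAAT are in that window and in that of the second Ank2 start, and in 37.4% of all windows. The Gli core GACCACCCA is in the window of the second Ank2 start, chr3:127409009-127409308, and in 0.253% of all windows. DNA methylation was not measured here.

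**Figure D1:**
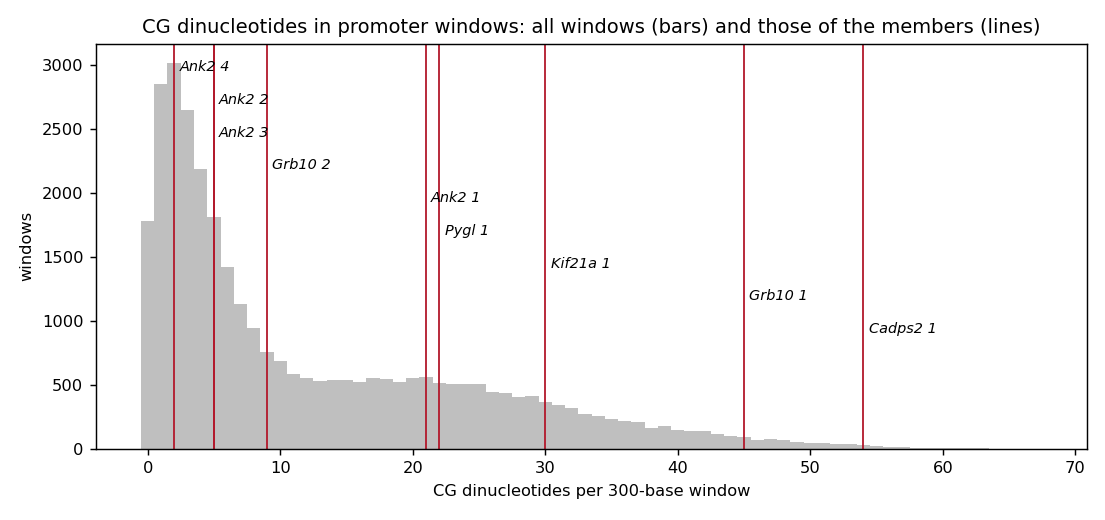
Number of windows (vertical axis) by CG dinucleotides per window of 300 bases (horizontal axis), with bars for all 32851 RefSeq windows and red lines for the 9 windows of Ank2, Grb10, Pygl, Kif21a and Cadps2. Cadps2 at 54 and Grb10 at 45 lie in the far right tail, and the later starts of Ank2 lie at 2 to 5.

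The levels that served to choose the genes are given as a description, with no test. Kif21a was listed at 0 in all 3 Ift140 KO flow libraries, against 11.8, 11.7 and 10.8 TPM in WT flow libraries. The larger of the 2 Ift140 KO flow values used for the choice was 0.150% of the WT flow mean for Grb10, 0.552% for Ank2, 1.09% for Pygl, 5.76% for Asph, 8.18% for Pamr1 and 9.60% for Cadps2, the member nearest the limit. Just outside were the kinase gene Tnik at 10.4%, the chemokine gene Ccl2 at 11.4% and the interferon-inducible gene Ifi204 at 11.7%. Replicate 3 of the Ift140 KO flow group, which the choice did not use, held 4.6% of the WT flow mean for Ank2, 2.18% for Pygl, 3.35% for Asph, 11.4% for Cadps2 and 4.87% for Pamr1, and listed Grb10 and Kif21a at 0. The 7 genes were thus low in that library too. Its Ift140 level was near WT, but the library stood apart in other genes as well, so that level cannot be read alone. Tnik, in contrast, stood at 103% of the WT flow mean there. The other 17 genes that met both conditions were Serpinh1, Cubn and Nqo1 and 14 names that are small nuclear RNA genes or not matched to the annotation. In Dync2h1 KO flow libraries Cubn was at 0.866% of the WT flow mean, while Serpinh1, a collagen chaperone, was at 53.6% and Nqo1, a quinone reductase, at 112%.

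**Figure D2:**
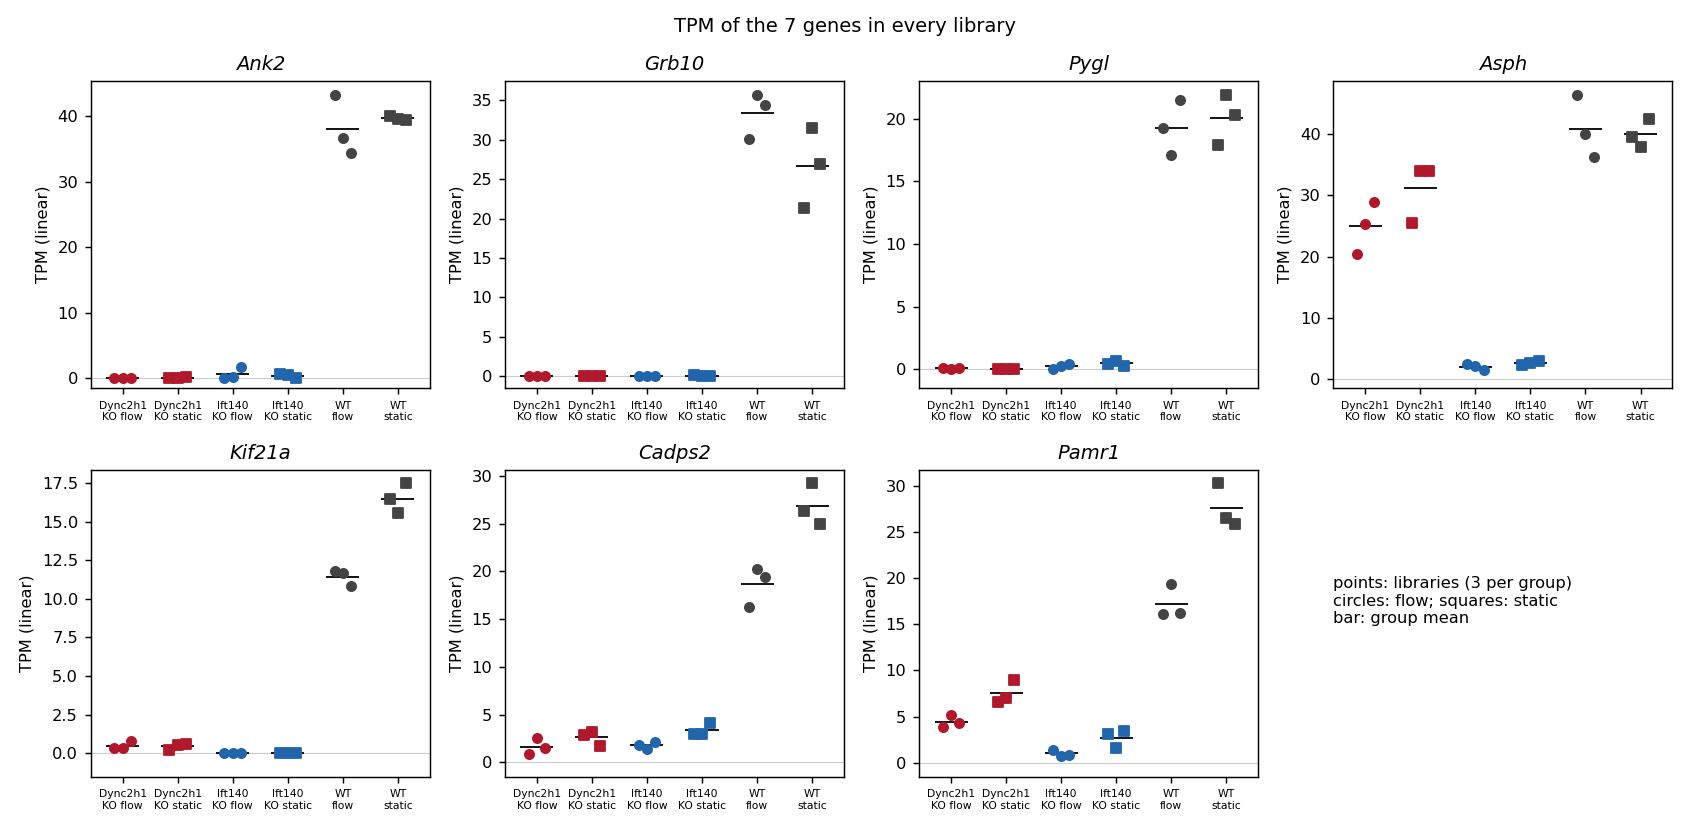
TPM on a linear axis for each of the 7 genes in 18 libraries, by group from Dync2h1 KO to WT, with circles for flow, squares for static and a bar for the mean of 3 libraries. Ank2, Grb10, Pygl and Kif21a lie near 0 in all knockout groups, and Asph stands at 20.4 to 34.1 TPM in Dync2h1 KO libraries.

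Static cultures and all Dync2h1 KO libraries played no part in the choice and were tested with limma on log2(scaled TPM + 1), with Benjamini-Hochberg adjustment over 16718 genes. The WT and Ift140 KO lines were those of the choice, however. A fall in static Ift140 KO against static WT cells is therefore not independent of the choice, and its p-values are no separate support. Ank2, Grb10, Pygl and Kif21a passed the filter on low values through WT libraries alone, so they had to differ from WT, and their differences from WT are given as a description with no p. Of the other 3 members, Asph, Cadps2 and Pamr1 all fell in static Ift140 KO against static WT cells, where 8.68% of all genes tested were lower and 7.76% higher. The libraries of these groups did not overlap for any of the 3, which held in this direction of 14.5% of all genes tested. In static Dync2h1 KO against static WT cells Cadps2 and Pamr1 fell and Asph did not pass, where 13.1% of all genes were lower and 13.1% higher. Both comparisons use the same 3 static WT libraries. The added 1 TPM makes fitted differences of genes near 0 smaller than the ratios of their TPM. The smallest p that an exact permutation test can give for 3 libraries against 3 is 0.1, and the smaller values here come from the fitted model.

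Among the cytoskeletal genes, Ank2 read 0.03, 0.08 and 0.12 TPM in static Dync2h1 KO libraries, 0.59, 0.41 and 0.01 TPM in static Ift140 KO libraries and 40.1, 39.5 and 39.4 TPM in static WT libraries. Every knockout library was under 1 TPM, far below every WT library. The fitted log2 difference from WT was -5.24 in the Dync2h1 KO line and -4.95 in the Ift140 KO line. Under flow it read 0.02, 0.01 and 0.01 TPM in Dync2h1 KO libraries, 0.06, 0.21 and 1.75 TPM in Ift140 KO libraries and 43.2, 36.6 and 34.3 TPM in WT libraries. The value of 1.75 TPM, the highest in any knockout library, belongs to Ift140 KO flow replicate 3, the library that stood apart in other genes too.

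Kif21a, the cortical kinesin, read 0.19, 0.57 and 0.62 TPM in static Dync2h1 KO libraries, 0.00, 0.01 and 0.00 TPM in static Ift140 KO libraries and 16.5, 15.5 and 17.5 TPM in static WT libraries. The 3 groups did not overlap, and Ift140 KO was the lowest. Its log2 difference from WT was -3.59 in the Dync2h1 KO line and -4.12 in the Ift140 KO line. Under flow the Dync2h1 KO libraries held 0.38, 0.35 and 0.80 TPM, which is 4.47% of the WT flow mean.

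Grb10, the adaptor at insulin and insulin-like growth factor receptors, had the lowest maximum of the 7 genes over the knockout libraries. It read 0.01, 0.01 and 0.03 TPM in static Dync2h1 KO libraries, 0.11, 0.00 and 0.00 TPM in static Ift140 KO libraries and 21.4, 31.5 and 27.0 TPM in static WT libraries. Against WT the log2 difference was -4.74 in the Dync2h1 KO line and -4.71 in the Ift140 KO line. Under flow, Dync2h1 KO libraries held 0.04, 0.02 and 0.01 TPM, Ift140 KO libraries 0.01, 0.05 and 0.00 TPM, and WT libraries 30.2, 35.7 and 34.4 TPM. No knockout library of either culture exceeded 0.11 TPM.

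Pygl, the glycogen phosphorylase of liver type, was listed at 0 in all 3 static Dync2h1 KO libraries. It read 0.41, 0.66 and 0.28 TPM in static Ift140 KO libraries and 17.9, 21.9 and 20.3 TPM in static WT libraries. Its log2 difference from WT was -3.88 in the Ift140 KO line, while that of the Dync2h1 KO line, -4.39, depends on the added 1 TPM because the group is listed at 0. Under flow the Dync2h1 KO libraries held 0.09, 0.00 and 0.07 TPM and the Ift140 KO libraries 0.00, 0.21 and 0.42 TPM, against 19.3, 17.1 and 21.5 TPM in WT libraries. The knockout and WT libraries were widely separated in both cultures.

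Asph, the hydroxylase of the endoplasmic reticulum, whose locus also encodes the calcium-handling proteins junctin and junctate, separated the lines. It read 25.52, 33.98 and 34.07 TPM in static Dync2h1 KO libraries, 2.21, 2.60 and 2.85 TPM in static Ift140 KO libraries and 39.6, 38.0 and 42.5 TPM in static WT libraries. It fell by 3.58 on the log2 scale in the Ift140 KO line (SE 0.161, adjusted p = 8.98e-10, limma), to 6.38% of the WT mean. In the Dync2h1 KO line the difference was -0.35 (SE 0.161, 95% interval -0.689 to -0.003 without adjustment) and did not pass, with adjusted p = 0.132 by limma. The 3 static Dync2h1 KO libraries lay below the 3 static WT libraries with no overlap, as did 22.3% of all genes tested. For Asph in Dync2h1 KO against WT, static, the adjusted p was 0.0429 in a fit restricted to these groups and 0.0396 without the Ift140 KO flow replicate 3. Under flow Asph read 20.4, 25.4 and 29.0 TPM in Dync2h1 KO, 2.36, 2.13 and 1.37 TPM in Ift140 KO and 46.5, 40.0 and 36.3 TPM in WT libraries, again with Dync2h1 KO in the middle. The values are per gene, so the products of the locus cannot be told apart.

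Cadps2, the priming factor for dense-core vesicles, read 2.82, 3.22 and 1.75 TPM in static Dync2h1 KO libraries, 2.91, 3.01 and 4.13 TPM in static Ift140 KO libraries and 26.37, 29.23 and 24.98 TPM in static WT libraries. The knockout lines overlapped each other and stayed well below WT. Cadps2 fell in both lines, with a log2 difference of -2.96 in the Dync2h1 KO line (SE 0.203, adjusted p = 4.38e-08, limma) and -2.74 in the Ift140 KO line (SE 0.203, adjusted p = 2.61e-07, limma), to 9.67% and 12.5% of the WT mean. It was thus measurable in every knockout library, with the lowest value, 0.91 TPM, in a Dync2h1 KO flow library.

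Pamr1, a secreted protein linked to muscle regeneration, read 6.55, 7.06 and 8.99 TPM in static Dync2h1 KO libraries, 3.09, 1.65 and 3.40 TPM in static Ift140 KO libraries and 30.3, 26.5 and 25.9 TPM in static WT libraries. The groups formed 3 separate levels, with Dync2h1 KO in the middle. Pamr1 fell in both lines, with a log2 difference of -1.74 in the Dync2h1 KO line (SE 0.178, adjusted p = 3.23e-06, limma) and -3.02 in the Ift140 KO line (SE 0.178, adjusted p = 1.84e-08, limma). The Dync2h1 KO line kept 27.3% of the WT mean and the Ift140 KO line 9.84%.

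Read against the limit of the choice, 5 of the 7 genes averaged under 10% of WT in static Dync2h1 KO cells, the exceptions being Asph and Pamr1. Of the 9551 genes with at least 10 TPM in static WT cells, 0.450% were that low in this line. In static Ift140 KO cells 6 of the 7 were under 10%, the exception being Cadps2, and 0.283% of those genes were. The choice used this line under flow, so that count is not independent of it. Under flow, where the WT libraries served for the choice and nothing is tested, all 7 were under 10% in Ift140 KO cells, as were 0.304% of 9533 genes, and none overlapped with WT, as 13.4% of all genes tested did not in this direction. Of the 7 genes, 5 were under 10% in Dync2h1 KO cells, against 0.493% of those genes. The Dync2h1 KO line under flow kept 0.0351% of the WT flow mean of Ank2, 0.0699% of Grb10, 0.276% of Pygl, 60.9% of Asph, 4.47% of Kif21a, 8.80% of Cadps2 and 25.8% of Pamr1. All 7 genes were lower there than in WT flow libraries without overlap, as were 29.8% of all genes tested. By the share left, Asph was at the top in flow and static Dync2h1 KO cells, then Pamr1, Cadps2 and Kif21a in both. Ank2, Grb10 and Pygl kept the least. They fell in that order in static cells and in the reverse order under flow.

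**Figure D3:**
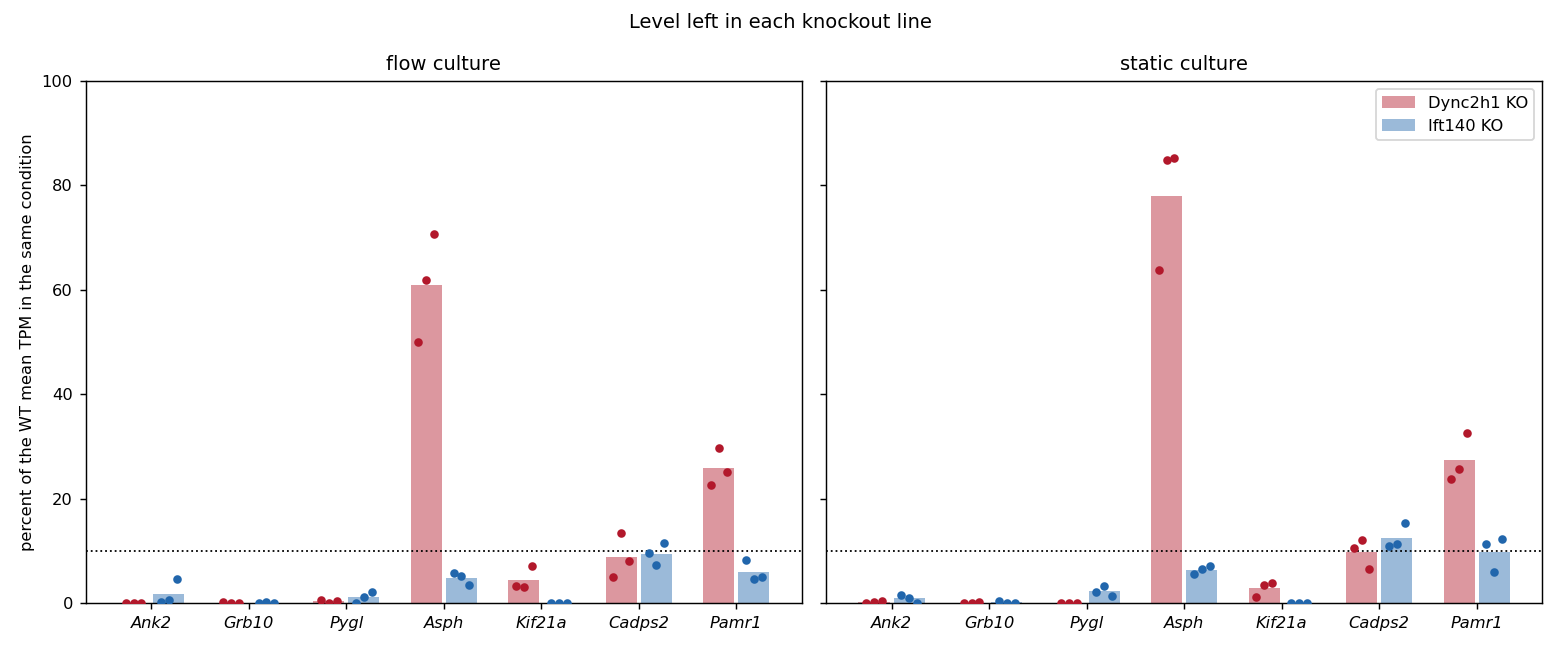
Percent of the WT mean TPM in the same condition for each gene, flow at the left and static at the right, with Dync2h1 KO in red and Ift140 KO in blue; bars are means of 3 libraries, points are libraries and the dotted line is at 10%. In static culture Asph reaches 78.0% and Pamr1 27.3% in the Dync2h1 KO line, against 6.38% and 9.84% in the Ift140 KO line.

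The knockout lines were also compared directly in static culture, with limma as above. Asph was higher in Dync2h1 KO than in Ift140 KO cells by 3.23 on the log2 scale (SE 0.161, adjusted p = 1.26e-09), and Pamr1 by 1.28 (SE 0.178, adjusted p = 8.75e-05). Both separated without overlap, with all 3 Dync2h1 KO libraries above all 3 Ift140 KO libraries. The same held of Kif21a, and Pygl separated the other way, where 13.1% of all genes tested were higher without overlap and 20.7% lower. In all, 3 of the 7 genes were higher and 1 lower, where 10.5% of all genes tested were higher and 11.0% lower. The members were chosen as low in the Ift140 KO line, which tilts this comparison towards higher values in Dync2h1 KO cells. The shares over all genes carry no such choice, so the counts are not a like comparison. Among the higher genes was Kif21a, with a difference of 0.52 (SE 0.148, adjusted p = 0.0189), and the lower gene was Pygl with -0.51 (SE 0.146, adjusted p = 0.0207). The levels of these last genes are under 1 TPM in both lines, and both calls were lost with an added 5 TPM in place of 1 (adjusted p = 0.161 for Kif21a and 0.243 for Pygl) and in a fit restricted to both lines in static culture (0.0684 and 0.0653). Pygl also lost its call without any 1 of the static Dync2h1 KO libraries (0.0537, 0.0538 and 0.0527 without replicates 1, 2 and 3) and without Ift140 KO static replicate 2 (0.0954), and Kif21a without Dync2h1 KO static replicate 2 (0.0781) or 3 (0.0769). Ank2, Grb10 and Cadps2 did not pass. Their differences were -0.29 (95% interval -0.800 to 0.225, adjusted p = 0.441), -0.03 (-0.303 to 0.247, adjusted p = 0.913) and -0.22 (-0.651 to 0.213, adjusted p = 0.494), and these intervals bound how far the lines may differ on the scale of log2(scaled TPM + 1).

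**Figure D4:**
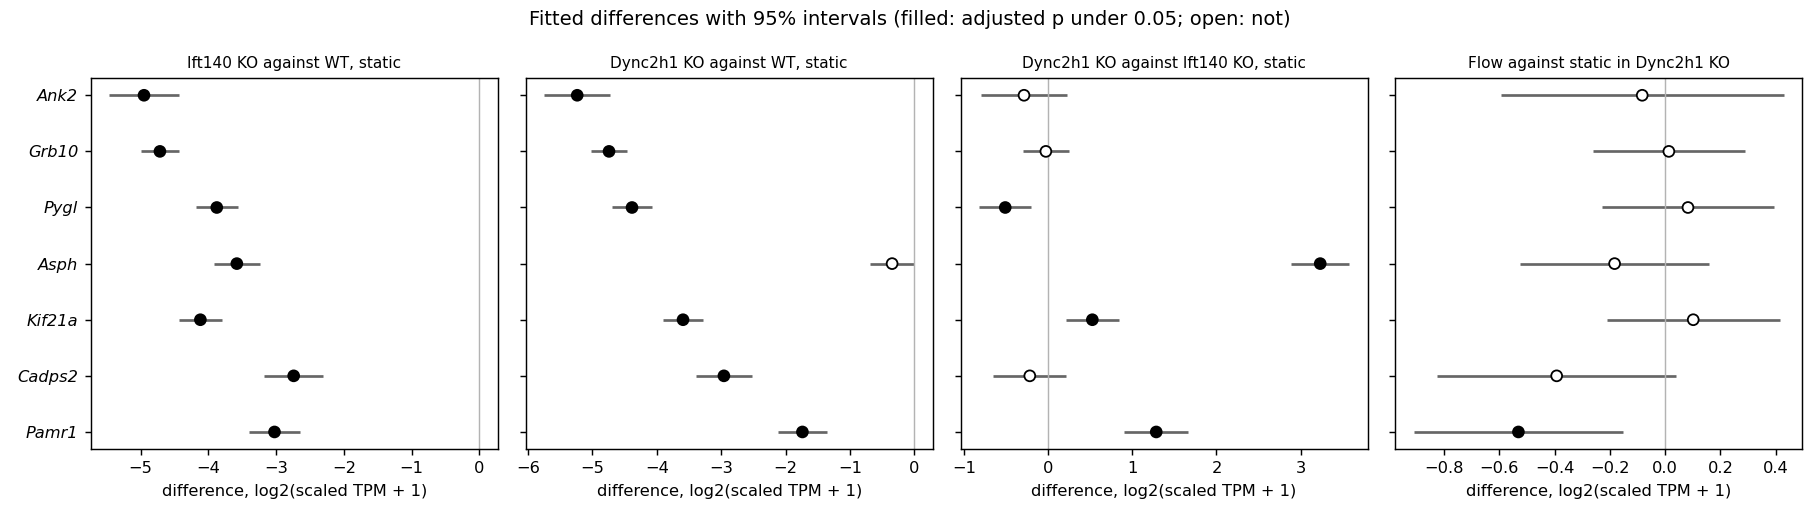
Fitted differences of log2(scaled TPM + 1) for the 7 genes in the 4 comparisons tested, with 95% intervals and an axis range of its own in each panel; filled points have an adjusted p under 0.05, which for Ank2, Grb10, Pygl and Kif21a against WT is a description, since they passed the filter through WT libraries. Differences from WT run from -5.24 for Ank2 to -0.35 for Asph, the open point in the Dync2h1 KO panel, and Asph at 3.23 is the point farthest to the right between the lines.

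Flow against static could be tested in the Dync2h1 KO line, where Pamr1 was the member that passed. Pamr1 read 3.91, 5.13 and 4.31 TPM in Dync2h1 KO flow libraries and 6.55, 7.06 and 8.99 TPM in Dync2h1 KO static libraries, with no overlap, as was the case in this direction for 24.7% of all genes tested. It fell by 0.53 on the log2 scale (SE 0.178, adjusted p = 0.0497, limma), 1 of the 7 genes, where 7.38% of all genes tested were lower and 10.8% higher. The number of genes higher was 1801, and 830 with the deposited scaling. The Dync2h1 KO libraries of Ank2 also separated, at 0.02, 0.01 and 0.01 TPM under flow and 0.03, 0.08 and 0.12 TPM static, with levels too low to read. The call of Pamr1 stands at the threshold: the adjusted p was 0.0622 to 0.159 when each library of the comparison was left out in turn. Cadps2 read 0.91, 2.50 and 1.51 TPM under flow and 2.82, 3.22 and 1.75 TPM static in this line, which overlap, and its difference of -0.39 (95% interval -0.824 to 0.040) did not pass (adjusted p = 0.211, limma). The difference of Asph was -0.18 (-0.526 to 0.160, adjusted p = 0.494, limma), and Ank2, Grb10, Pygl and Kif21a had differences of at most 0.10 in size with adjusted p of at least 0.699.

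The flow values of the other genotypes entered the choice and are given without a test. Pamr1 was lower under flow than static without overlap in Ift140 KO cells (1.41, 0.78 and 0.84 TPM against 3.09, 1.65 and 3.40 TPM) and in WT cells (16.1, 19.4 and 16.3 TPM against 30.3, 26.5 and 25.9 TPM). The groups were thus ordered in the same way in all 3 genotypes. Cadps2 was lower under flow without overlap in Ift140 KO cells (1.79, 1.36 and 2.13 TPM against 2.91, 3.01 and 4.13 TPM) and in WT cells, where it averaged 18.6 ± 2.11 TPM under flow and 26.9 ± 2.17 TPM static (SD, n = 3 each). Kif21a averaged 11.4 ± 0.541 TPM in WT flow and 16.5 ± 0.975 TPM in WT static cells, also without overlap. Among all genes tested, 13.9% were lower under flow in Ift140 KO cells and 19.7% in WT cells by the same description. Ank2, Grb10, Pygl and Asph overlapped between flow and static WT libraries, with means of 38.0 ± 4.62 and 39.7 ± 0.359 TPM for Ank2.

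Relatives of the 7 genes that were expressed enough to be tested kept measurable levels in the Ift140 KO line. Of 10 listed relatives, 5 were tested, and none passed in static Ift140 KO against WT cells by limma, with 1 at an unadjusted p under 0.05. Without the filter on low values, 1 of the 10 was lower there. In static Dync2h1 KO cells 3 of the 5 fell. Over all genes tested, 13.1% were lower in the Dync2h1 KO and 8.68% in the Ift140 KO line. Kif21b, the other kinesin of its type, averaged 0.0433 ± 0.0231 TPM in static Dync2h1 KO, 5.94 ± 1.01 TPM in static Ift140 KO and 5.94 ± 0.643 TPM in static WT cells (SD, n = 3 each), a fall by 2.73 in the Dync2h1 KO line. It is counted among the 3 but reached 1 TPM in no Dync2h1 KO library and passed the filter through the other lines alone. Its fall is therefore given as a description with no p. Kif21a and Kif21b were thus both near 0 in the Dync2h1 KO line, while in the Ift140 KO line the mean of Kif21b was the same as in WT. Ank3, encoding ankyrin-G, averaged 17.5 ± 2.05, 38.0 ± 5.54 and 37.2 ± 6.25 TPM in the same order and fell by 1.02 in the Dync2h1 KO line (adjusted p = 1.04e-05, limma). Pygb, the glycogen phosphorylase of brain type, remained abundant at 101 ± 13.4, 127 ± 14.2 and 132 ± 5.99 TPM and fell by 0.38 in the Dync2h1 KO line (adjusted p = 0.0156, limma), a call lost without Dync2h1 KO static replicate 2 (adjusted p = 0.0712). Grb14, a relative of Grb10, was too low to be tested, at 0.06, 0.09 and 0.08 TPM in static Dync2h1 KO, 0.00, 0.04 and 0.00 TPM in static Ift140 KO and 2.64, 1.26 and 0.80 TPM in static WT libraries. Cadps, the relative of Cadps2, was listed at 0 in every library.

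The genes around each member were counted from lists that do not hold the 7. Some genes are in more than 1 list, such as Igf2r, or are also among the relatives above, such as Ank3, Kif21b and Pygb. The counts of the lists are therefore not independent. Of all genes tested, 13.1% fell and 13.1% rose in static Dync2h1 KO against WT cells, and 8.68% fell and 7.76% rose in static Ift140 KO against WT cells. Of 16 membrane skeleton genes tested, 8 fell and none rose in static Dync2h1 KO cells, and 4 fell and 1 rose in static Ift140 KO cells, with medians of -0.35 and -0.10 against 0.00 and -0.02 over all genes tested. Add3, an adducin at spectrin-actin junctions, fell by 0.87 in the Dync2h1 KO line. Dmd, encoding dystrophin, averaged 0.0633 ± 0.11 TPM in static Dync2h1 KO, 0.140 ± 0.234 TPM in static Ift140 KO and 4.42 ± 1.42 TPM in static WT cells. It is counted in both lines but passed the filter through WT libraries alone, so that it had to differ. Epb41l3, a protein 4.1 gene, rose by 1.2 in the Ift140 KO line, with 109 ± 17.2 TPM against 44.7 ± 4.94 TPM in WT cells. Of 15 genes of the cortical microtubule complex, 6 fell and none rose in Dync2h1 KO cells, with a median of -0.38, and 2 fell and 2 rose in Ift140 KO cells, with a median of 0.04. As shares, these are 40% lower in Dync2h1 KO and 13.3% each way in Ift140 KO cells. Kank3, of the KANK scaffold family that binds Kif21a, fell in both lines in static culture (-0.79 in Dync2h1 KO and -0.62 in Ift140 KO). Under flow, which was not tested, Kank3 averaged 21.2 TPM in Dync2h1 KO, 30.9 TPM in Ift140 KO and 24.7 TPM in WT cells. Libraries of each knockout line overlapped with WT there, and the Ift140 KO mean was the higher one. The talin gene Tln2 fell by 0.97 in the static Dync2h1 KO line.

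Around Grb10, 5 of 16 insulin and insulin-like growth factor signalling genes fell and none rose in static Dync2h1 KO cells, and none fell and 3 rose in static Ift140 KO cells, with medians of -0.17 and 0.06. Set against 13.1% of all genes lower in Dync2h1 KO and 7.76% higher in Ift140 KO cells, these are 31.2% and 18.8% of the list. Without the filter, 1 gene of the list fell in static Ift140 KO cells. Igfbp2, a secreted binding protein for these growth factors, averaged 0.247 ± 0.217 TPM in Dync2h1 KO, 92.9 ± 7.35 TPM in Ift140 KO and 56.0 ± 5.04 TPM in WT cells. It fell by 5.52 in the Dync2h1 KO line. Igfbp2 is counted among the 5 but reached 1 TPM in no Dync2h1 KO library and passed the filter through the other lines alone. Its fall is therefore a description with no p. In the Ift140 KO line it rose by 0.65 (adjusted p = 0.00882, limma), the rise being lost with an added 0.1 TPM in place of 1 (adjusted p = 0.379). Irs2, a substrate adaptor of the insulin receptor, rose by 0.88 in the Ift140 KO line. Of 15 other imprinted genes, 6 fell and 2 rose in Dync2h1 KO cells, and none fell and 2 rose in Ift140 KO cells, with medians of -0.42 and 0.29. The 2 that rose are 13.3% of the list in each line, beside 13.1% and 7.76% of all genes. H19, an imprinted noncoding RNA, averaged 7.58 ± 1.67 TPM in Dync2h1 KO, 34.7 ± 2.82 TPM in Ift140 KO and 43.0 ± 2.75 TPM in WT cells and fell by 2.37 in the Dync2h1 KO line. Peg3, a paternally expressed zinc finger gene, fell by 1.30 in the Dync2h1 KO line and rose by 1.27 in the Ift140 KO line. Phlda2, of the same list, rose by 1.58 in the Dync2h1 KO line.

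Around Pygl, 4 of 18 glycogen genes fell and 4 rose in static Dync2h1 KO cells, and 2 fell and 3 rose in static Ift140 KO cells, with medians of -0.02 and -0.10. These are 22.2% of the list each way in Dync2h1 KO cells, beside 13.1% of all genes each way, and 11.1% lower and 16.7% higher in Ift140 KO cells, beside 8.68% and 7.76%. Gbe1, the branching enzyme, rose by 0.74 and 0.51 in the Dync2h1 KO and Ift140 KO lines. Gaa, the lysosomal glycogen-degrading glucosidase, fell by 0.96 in the Dync2h1 KO line, and Stbd1, which tethers glycogen to membranes, rose there by 1.2. Around Asph, 4 of 15 genes of calcium handling in the endoplasmic reticulum fell and 3 rose in Dync2h1 KO cells, and none fell and 2 rose in Ift140 KO cells, with medians of -0.16 and -0.02, which is 26.7% lower and 20% higher beside 13.1% each way, and 13.3% higher beside 7.76%. Calr, the calcium-binding chaperone calreticulin, averaged 377 ± 47.5 TPM in Dync2h1 KO, 745 ± 19.5 TPM in Ift140 KO and 719 ± 26.3 TPM in WT cells and fell by 0.92 in the Dync2h1 KO line. In the same line Itpr1 fell by 1.03 and Itpr2 rose by 0.87. Jph1 rose by 1.13 in the Ift140 KO line, from 0.15 to 0.42 TPM in static WT libraries. Around Cadps2, 3 of 20 regulated exocytosis genes fell and 4 rose in Dync2h1 KO cells, and 5 fell and 2 rose in Ift140 KO cells, with medians of -0.05 and -0.30. The shares in Dync2h1 KO cells, 15% lower and 20% higher, stand beside 13.1% each way over all genes, and those in Ift140 KO cells, 25% lower and 10% higher, beside 8.68% and 7.76%. Rab27b, a small GTPase of secretory vesicles, fell in both lines (-0.83 in Dync2h1 KO and -1.22 in Ift140 KO), and its effector Sytl4 fell by 1.36 in the Ift140 KO line. Other genes of the list rose: Sytl2 by 0.83 in the Ift140 KO line, and Unc13a by 0.87 and Unc13d by 0.64 in the Dync2h1 KO line.

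The tested genes next to the members were not near absent. The nearest protein-coding genes on either side, with 3 that overlap a member, number 17, and 6 of them were expressed enough to be tested. In static Dync2h1 KO and Ift140 KO cells they stood at 66.0% and 147% of the WT mean for Camk2d and at 99.9% and 93.6% for Larp7, which flank Ank2 at 75286 bp and 37364 bp. Cobl, 197925 bp from Grb10, stood at 113% and 155%. Chd7, 580410 bp from Asph, stood at 167% and 93.1%, Cpne8, 253844 bp from Kif21a, at 164% and 133%, and Fjx1, 97513 bp from Pamr1, at 62.5% and 94.0%. None of the 6 was under 10% of WT in either line. In the Ift140 KO line none of the 6 passed by limma, with 2 at an unadjusted p under 0.05 and a smallest adjusted p of 0.0535. In the Dync2h1 KO line Cpne8 rose by 0.71 (adjusted p = 0.00127) and Chd7 by 0.67 (0.0142), while Fjx1 fell by 0.53 (0.00303) and Camk2d by 0.57 (0.0156), where 13.1% of all genes tested were lower and 13.1% higher. The calls of Chd7 and Camk2d were lost without WT static replicate 2 (adjusted p = 0.0631 and 0.0547) and without Dync2h1 KO static replicate 3 (0.0707 and 0.0778). Ddc, the imprinted neighbour of Grb10, and the nearest neighbours of Pygl and Cadps2 averaged at most 0.08 TPM in every group, so nothing can be read from them.

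**Figure D5:**
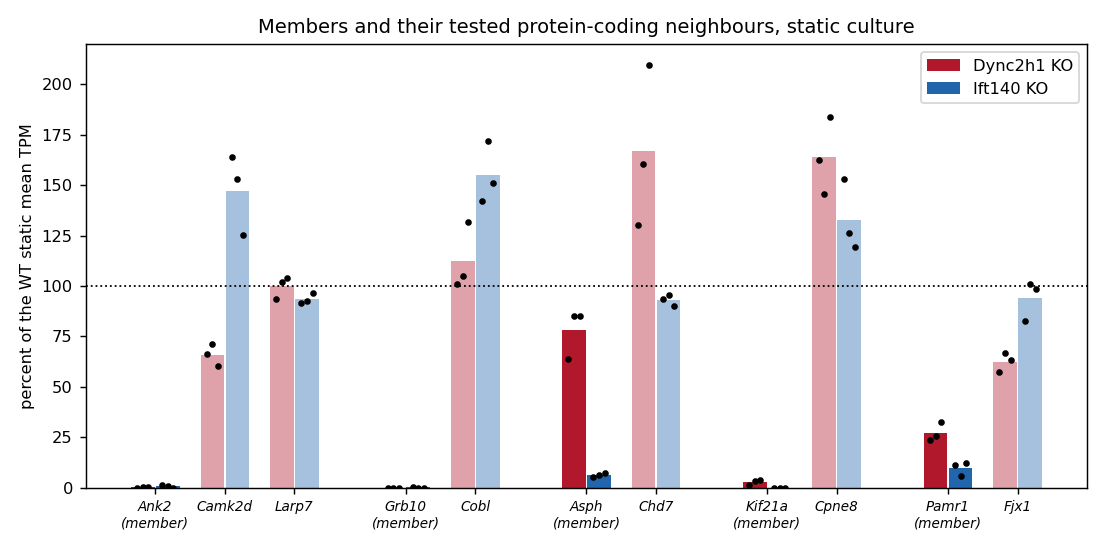
Percent of the WT static mean TPM in static Dync2h1 KO (red) and Ift140 KO (blue) cells for 5 members (dark bars) and their tested protein-coding neighbours (pale bars); bars are means of 3 libraries, points are libraries and the dotted line is at 100%. Neighbours lie between 62.5% and 167%, while Ank2, Grb10 and Kif21a lie under 3%.

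Genes were ranked by their likeness, across all 18 libraries, to the mean of the 7. Each of the 7 was on log2(scaled TPM + 1) and set to the same mean and SD. Genes of low mean level and those with Gm or Rik names were left out of the ranking. Among the genes ranked, the closest was Cntln, encoding the centrosomal protein centlein, with Pearson r = 0.980. It was followed by Cubn (0.973), the lysosomal membrane receptor gene Scarb2 (0.941), the drug transporter gene Abcc3 (0.936) and the T-box factor gene Tbx15 (0.935). Cntln averaged 13.5 ± 2.0 TPM in static Dync2h1 KO, 8.04 ± 0.972 TPM in static Ift140 KO and 37.0 ± 1.96 TPM in static WT cells. Cubn averaged 4.0 ± 0.605, 3.47 ± 1.17 and 412 ± 17.7 TPM in the same groups, so that it shared the near absence in both lines. The members' own correlations with that mean ran from 0.730 for Asph and 0.936 for Pamr1 to 0.993 for Kif21a. These correlations are a description of 6 groups of 3 libraries that share their lines, and they follow mainly the step between knockout and WT.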

How the data were processed

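RNA was sequenced from 18 IMCD3 libraries. Per the submitters' processing notes, FastQC 0.11.5, Bowtie2 2.1.0 and RSEM 1.2.31 were used and the builds mm10 and GRCm38.p5 were named; settings and annotation are not given in the sources used here. The deposited values were treated as TPM, since values over the 49845 genes add up to 1000000, within 1, in each library. A row with the total was dropped. TPM keeps no depth, so the depth of each library is unknown, and 0 may be no reads or a failed estimate. Libraries had 14705 to 16076 genes at 1 TPM or more.

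Libraries were scaled by a trimmed mean of log ratios (30% of ratios and 5% of abundances trimmed), with factors of 0.880 to 1.21. The filter kept 16718 genes that reached 1 TPM in 3 or more libraries, and all 7 members passed. limma 3.58.1 in R 4.3.3 was run on log2(scaled TPM + 1) with 6 group means, 12 residual degrees of freedom and a mean-variance trend, and a gene passed at an adjusted p under 0.05. SE and intervals come from that fit. Levels in the text are deposited TPM. Comparisons with Ift140 KO flow or WT flow libraries were not tested, because the choice of members used them.

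The members and gene lists were chosen with earlier results of these data known. There were 13 lists with 209 genes, of which 134 were tested, and a neighbour list restricted to protein-coding genes after the files had been seen. Named were the members, genes that met or just missed the choice, up to 3 list genes per comparison by smallest p, and neighbours. Also named were the 5 genes most like the members among those ranked, which left out genes of low mean level and Gm or Rik names. List genes are described for the comparisons with WT. Of the names, 47220 matched GENCODE vM21. The scripts were tested on simulated data. Alternatives changed the scaling, filter, pseudocount, trend, libraries in the fit and use of replicate numbers.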

Additional observations from a re-analysis of the deposited data

Results flagged for a closer look

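In 4 of the 7 genes the knockout lines differed from each other in static culture by the direct limma test, after adjustment over all 16718 genes, of which 10.5% were higher and 11.0% lower in the Dync2h1 KO line. The choice of genes low in the Ift140 KO line favours higher values in the Dync2h1 KO line here. Asph stood higher in Dync2h1 KO than in Ift140 KO cells by 3.23 on the log2 scale, Pamr1 by 1.28 and Kif21a by 0.52, each in 3 of 3 libraries. Pygl differed by -0.51, with all 3 Dync2h1 KO libraries listed at 0. The calls of Asph and Pamr1 rest on levels of several TPM, and those of Kif21a and Pygl on levels under 1 TPM in both lines. The calls of Kif21a and Pygl were lost with an added 5 TPM (adjusted p = 0.161 and 0.243, limma) and when the fit was restricted to these static groups (0.0684 and 0.0653).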

How the results depend on the processing

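Against WT in static culture, the 5 calls of Asph, Cadps2 and Pamr1 (3 in the Ift140 KO and 2 in the Dync2h1 KO line) passed in the same direction in 75 of 75 checks under the alternatives, with a highest adjusted p of 0.000733 (limma). The 3 calls in the Ift140 KO line concern the line by which the genes were chosen, so their stability is no separate support. Leaving out each library of the comparison in turn gave 966 to 1187 genes lower in Ift140 KO than in WT cells, the lowest without WT static replicate 1, against 1451 with all libraries. Without the Ift140 KO flow replicate 3, a library outside the comparison, the number was 2028. Between the lines the number of members lower was 0 to 1, and it was 0 with a pseudocount of 5 and with only the groups compared, so Pygl lost its call; Grb10, near 0 in both lines, ran from -0.0532 to 0.02331. For flow in the Dync2h1 KO line the number of members lower was 0 without each library of the comparison, 1 without the Ift140 KO flow replicate 3, and also 0 with quantile normalisation, no filter or a pseudocount of 0.1 (adjusted p of Pamr1 0.087, 0.0965 and 0.101). There Kif21a ran from -0.04019 to 0.1873 and Grb10 from -4.218e-05 to 0.02408, both far within their error. Deposited scaling gave 830 genes higher under flow in that line against 1801, with median shifts of up to 0.112 over all genes. The cause of these changes was not tested.

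Deviations of libraries with the same replicate number correlated weakly, at -0.089 to 0.14. In the static comparisons, replicates 1 and 3 were still closest to the library of the same number, and replicate 2 was not. For flow in the Dync2h1 KO line it was the reverse. Whether replicate numbers pair the samples is therefore not settled. With the replicate block, the number of members lower under flow in the Dync2h1 KO line was 0 (Pamr1, adjusted p = 0.0654). The unknown depth limits what can be said of values under 1 TPM.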
